A study of Mus musculus with 6 samples.

Results

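The genes described here are 9 whose protein products are typical of liver, measured in mouse fat: Aadac, Mup3, H2-Q10, Orm1, Orm2, Cyp2f2, Ces1d, Vnn1 and the albumin gene Alb, which serves as a check for liver RNA. They were chosen with the difference between transgenic and wild type fat already known, so that difference is described here without a test for these 9 genes. On the array they have 13 probe sets with 1 gene symbol each, out of 34958 such probe sets for 18194 genes. Epididymal white fat was taken from male mice aged 10 weeks on a mixed C57BL6 and SJL background. The transgenic mice (aP2-nSREBP1c, 3 animals) express the nuclear form of SREBP-1c from the aP2 (Fabp4) promoter, which is active in fat cells and not only in them, and the labels call these mice lipodystrophic. The strain label is spelled differently for each of the 3 animals, without the "n" for transgenic replicate 3, while all titles carry the same name. The controls were 3 wild type males described as litter-matched. Each animal's total RNA went on an Affymetrix MOE430v2.0 array of its own, and the number of mice, 3 per group, limits the precision.

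Hepatocytes export most plasma proteins, among them albumin, the lipocalins that carry small lipophilic molecules (the acid glycoproteins encoded by Orm genes and the major urinary proteins encoded by Mup genes) and a soluble class I molecule encoded by H2-Q10. They are also rich in enzymes of the endoplasmic reticulum that hydrolyse lipid and drug esters or oxidise foreign compounds. Several of these genes are known to be active outside the liver as well: Orm1 and Ces1d in fat cells, Vnn1 in gut and kidney, and Cyp2f2 in the club cells of the airway.

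The array of transgenic replicate 2 stood apart. There the 3′ over 5′ signal ratio of the Actb control reached 122, a usual sign of shortened RNA, against 1.11 to 1.81 elsewhere, and the median signal was 37.7, against 53.4 to 65.4. The differences of the 9 genes, and the printed differences of other genes that were called or moved by over 1.5 times, are therefore also given without that array. A second split, in the 3′ over 5′ ratio of the Pcx control, put transgenic replicate 1 and wild type replicate 3 (ratios of 3.10 and 3.06) apart from the other 4 arrays (14.1 to 52.0). It crosses the 2 groups. The deposited signals carry no detection calls, so 44 probe sets of olfactory receptor genes served as a yardstick for genes not used in fat. Their 95th percentile lay between 47.5 and 77.9 on the 6 arrays, and is called the olfactory level below.

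RefSeq promoter windows (build GRCm38.p6, 250 bases before to 50 bases after the annotated start) were at hand for 6 of the 9 genes: Aadac, Mup3, H2-Q10, Orm2, Cyp2f2 and Alb. The windows of 4 of the genes with a higher signal in transgenic fat are shown, with that of Orm3, a related gene which lies between Orm1 and Orm2 on chromosome 4 and is described below. Capitals mark exact matches to a searched motif and, in Orm3, the bases aligned to the match in Orm2.
Aadac (chr3:60031538-60031837, plus strand): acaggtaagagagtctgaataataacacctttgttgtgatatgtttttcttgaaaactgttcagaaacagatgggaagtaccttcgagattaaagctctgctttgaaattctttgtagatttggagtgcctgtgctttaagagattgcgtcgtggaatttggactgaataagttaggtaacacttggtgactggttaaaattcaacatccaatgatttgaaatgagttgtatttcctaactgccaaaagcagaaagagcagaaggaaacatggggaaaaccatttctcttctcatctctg
H2-Q10 (chr17:35469839-35470138, plus strand): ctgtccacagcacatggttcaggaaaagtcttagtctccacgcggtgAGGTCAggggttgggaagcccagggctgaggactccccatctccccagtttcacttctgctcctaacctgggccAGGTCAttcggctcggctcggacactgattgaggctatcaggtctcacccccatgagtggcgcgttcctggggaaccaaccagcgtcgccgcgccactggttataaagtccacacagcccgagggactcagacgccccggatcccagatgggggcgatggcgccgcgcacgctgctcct
Cyp2f2 (chr7:27119705-27120004, plus strand): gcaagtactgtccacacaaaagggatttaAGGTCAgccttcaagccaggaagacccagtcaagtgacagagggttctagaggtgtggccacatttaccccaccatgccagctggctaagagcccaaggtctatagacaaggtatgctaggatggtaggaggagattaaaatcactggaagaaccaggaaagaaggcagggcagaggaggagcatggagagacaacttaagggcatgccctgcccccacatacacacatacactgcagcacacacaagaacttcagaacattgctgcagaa
Orm2 (chr4:63362199-63362498, plus strand): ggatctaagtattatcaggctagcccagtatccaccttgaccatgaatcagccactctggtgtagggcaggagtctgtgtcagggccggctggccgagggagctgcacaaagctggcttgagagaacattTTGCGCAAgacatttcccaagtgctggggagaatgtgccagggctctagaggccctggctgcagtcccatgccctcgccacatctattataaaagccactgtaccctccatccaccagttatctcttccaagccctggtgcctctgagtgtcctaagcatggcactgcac
Orm3 (chr4:63355908-63356207, plus strand): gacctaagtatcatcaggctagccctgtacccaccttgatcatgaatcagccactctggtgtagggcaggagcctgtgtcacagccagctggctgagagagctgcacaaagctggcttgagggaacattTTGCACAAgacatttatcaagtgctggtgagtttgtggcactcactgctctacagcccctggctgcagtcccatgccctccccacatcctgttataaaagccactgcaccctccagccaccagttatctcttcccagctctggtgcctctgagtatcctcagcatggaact

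Motifs were sought on both strands. The hexamer AGGTCA bound by nuclear receptors, present in 16.3% of all 32851 promoter windows, was found 2 times in the H2-Q10 window, with first bases 203 and 129 bases before the start, and 1 time in the Cyp2f2 window, 221 bases before it. The C/EBP palindrome TTGCGCAA, present in 0.183% of windows, was found in the Orm2 window 120 bases before the start. The Orm2 and Orm3 windows are 86.6% identical over 305 alignment columns, and Orm3 carries the substitution G5A in that palindrome, counted from 1 at its first base. The sterol regulatory element of the LDL receptor gene (10 bases, in 0.0913% of windows), the E-box CACGTG (7.15%) and the direct repeat AGGTCANAGGTCA (0.0396%) were not found in the windows of the 6 genes, nor was any of the searched motifs in those of Aadac, Mup3 and Alb. A match is a description of these letters and not of binding.

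Of the 9 genes, 6 had a higher signal in all 3 transgenic mice than in any wild type mouse (Aadac, Mup3, H2-Q10, Orm1, Orm2 and Cyp2f2), and 3 a lower one (Ces1d, Vnn1 and Alb), each by its brightest tested probe set. Among all 13112 genes tested, the groups did not overlap for 30.4%. In the limma fit across all probe sets 5 of the 9 genes passed an adjusted p of 0.05 as higher and 2 as lower, where 3.77% of all genes passed it (2.23% higher and 1.54% lower). Of all genes 14.1% were higher and 16.3% lower without overlap. The genes were picked from this comparison, so these counts describe the choice. Orm1 and Alb were those not past the threshold. Mup3 had wild type signals of 2.2, 3.6 and 3.7, and entered the test through its transgenic signals alone. When the filter on low signals was raised from 40% to 60%, Mup3 was not tested. The higher genes then numbered 4 and the lower ones 2. Without transgenic replicate 2 and with the 40% filter, 6 genes were past the threshold as higher and 2 as lower, where 15.4% of all genes passed (8.04% higher and 7.33% lower). Without wild type replicate 1, 2 or 3 the higher genes numbered 5, 4 and 5, and the lower ones 0 each time. In these fits limma called 180, 141 and 187 of all 27023 tested probe sets, against 802 with all 6 arrays. As the groups do not overlap, each direction is also the same on either side of the Pcx split. The plot of member signals shows these values mouse by mouse.

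**Figure D1:**
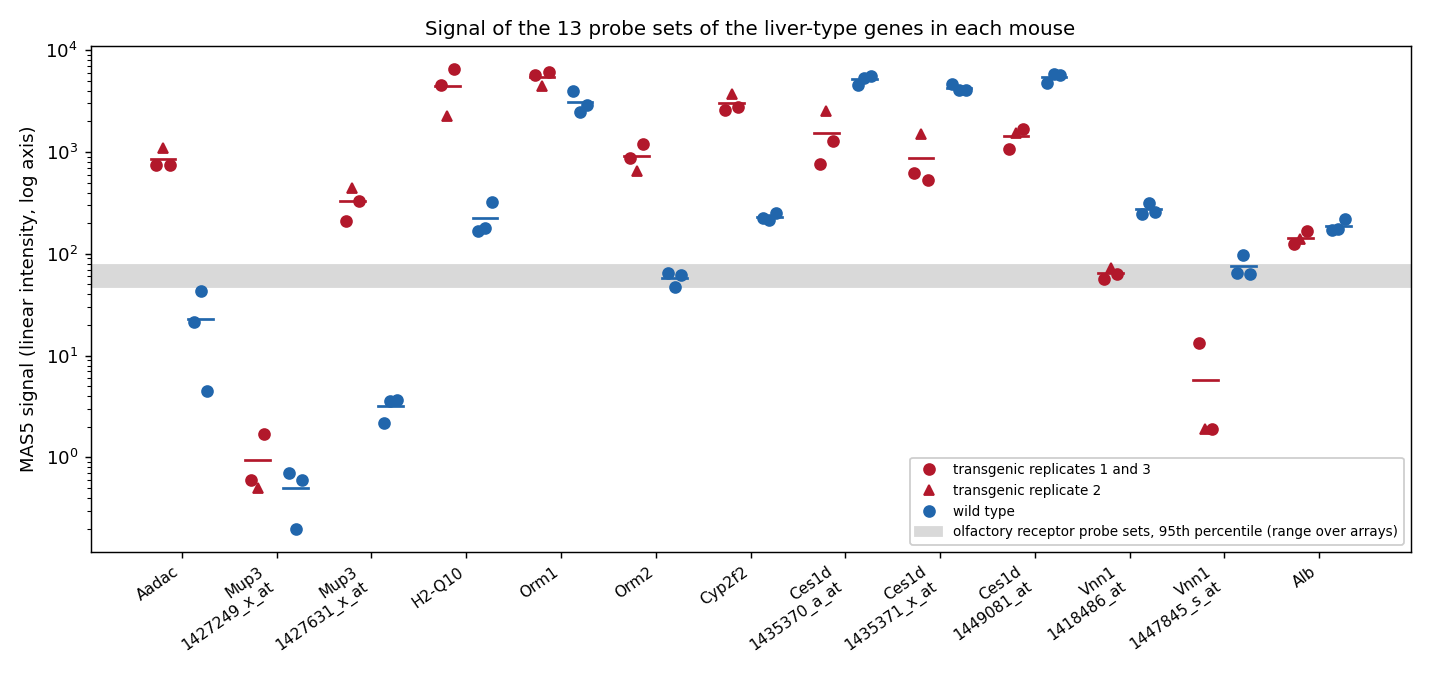
MAS5 signal (vertical log axis) of the 13 probe sets in each mouse, with transgenic mice in red (a triangle for replicate 2) left of wild type mice in blue, group means as lines, and a grey band for the range of the olfactory level over arrays. Aadac and 1 Mup3 probe set lie above the band in all transgenic mice and below it in all wild type mice, while Alb lies above it in all 6.

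Among the secreted proteins, Orm2, the gene of an acid glycoprotein that binds lipophilic compounds in plasma, had signals of 878.6, 654.2 and 1192.0 in transgenic mice and 65.1, 47.2 and 61.3 in wild type mice. Every transgenic value was far above every wild type value, and the wild type values lay near the olfactory level, above it in 1 of 3 mice. The difference, transgenic minus wild type, was 3.61 ± 0.29 (SE) on the log2(signal + 16) scale, and 3.82 without transgenic replicate 2. Orm1, its neighbour on chromosome 4, was bright in both groups, with 5658.4, 4467.5 and 6157.0 in transgenic mice and 3961.1, 2468.5 and 2924.1 in wild type mice. The groups did not overlap, but the lowest transgenic mouse (replicate 2) and the highest wild type mouse (replicate 1) lay close together. The ratio of the group means was 1.74, with a log2 difference of 0.81 ± 0.23 SE, and 0.95 without transgenic replicate 2.

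Mup3, which encodes a major urinary protein, a pheromone carrier, had 211.9, 446.7 and 328.0 in transgenic mice and 2.2, 3.6 and 3.7 in wild type mice by probe set 1427631_x_at. All transgenic values lay above the olfactory level and all wild type values far below it. Against signals so close to 0 the size depends on the offset: the log2 difference was 4.11 ± 0.30 SE with 16 added before the logarithm, 6.26 with 1 and 2.50 with 64, and 3.87 without transgenic replicate 2 with 16 added. The other Mup3 probe set, 1427249_x_at, disagreed. It had 0.6, 0.5 and 1.7 in transgenic mice and 0.7, 0.2 and 0.6 in wild type mice, fell below the filter on low signals and was not tested. Both carry the suffix x, which Affymetrix gives to probe sets with probes that can match other transcripts, and the Mup genes are a cluster of near-identical copies, so the signal may come from more than this gene.

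H2-Q10, the gene of a class I molecule that lacks a membrane anchor and is released by the liver, had 4597.1, 2283.0 and 6547.9 in transgenic mice and 166.1, 180.5 and 326.1 in wild type mice. The ratio of the means was 20.0, and the log2 difference was 4.16 ± 0.45 SE, or 4.58 without transgenic replicate 2, which had the lowest signal of its group. All 6 values lay above the olfactory level. H2-Q10 has close relatives in the H2-Q cluster of chromosome 17, and whether its probes can tell them apart was not tested.

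Alb, the check for liver RNA, ran the other way from the 6 higher genes. Its signals were 125.2, 141.3 and 167.3 in transgenic mice and 171.5, 173.9 and 220.2 in wild type mice. The transgenic values were the lower ones, and all 6 lay above the olfactory level. The log2 difference was −0.35 ± 0.23 SE, −0.34 without transgenic replicate 2 and −0.16 after quantile normalization.

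Among the enzymes, Aadac, a lipid esterase of the endoplasmic reticulum, had 746.0, 1086.1 and 751.9 in transgenic mice and 21.5, 43.0 and 4.5 in wild type mice. All wild type values were below the olfactory level, and the transgenic values were all above it. The log2 difference was 4.60 ± 0.42 SE (5.59 with an offset of 1 and 3.41 with 64), and 4.42 without transgenic replicate 2. Cyp2f2, a cytochrome P450 known for activating naphthalene, had 2582.0, 3745.0 and 2755.8 in transgenic mice and 223.1, 215.6 and 253.8 in wild type mice. The ratio of the means was 13.1, and the highest and lowest mouse differed 1.45 times within the transgenic group and 1.18 times within wild type. The log2 difference was 3.61 ± 0.24 SE, and 3.45 without transgenic replicate 2.

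Ces1d, a carboxylesterase that hydrolyses triglyceride and is also present in fat cells, was bright in wild type fat. By its brightest probe set, 1449081_at, it had 1071.8, 1522.7 and 1684.8 in transgenic mice and 4779.3, 5827.6 and 5654.8 in wild type mice. The wild type mean was 3.80 times the transgenic mean, and the log2 difference was −1.93 ± 0.22 SE, and −1.99 without transgenic replicate 2. The other probe sets of Ces1d also ran lower in every transgenic mouse, with −1.91 ± 0.41 SE for 1435370_a_at and −2.41 ± 0.39 SE for 1435371_x_at. On both of these, transgenic replicate 2 was the highest of its group (2507.5 and 1490.6), and without it the differences were −2.35 and −2.86.

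Vnn1, a pantetheinase that splits pantetheine into cysteamine and pantothenic acid, the vitamin from which coenzyme A is made, had 56.5, 72.4 and 63.9 in transgenic mice and 245.3, 314.0 and 258.5 in wild type mice by 1418486_at. The transgenic values lay around the olfactory level, above it in 1 of 3 mice, and the wild type values well above it. The log2 difference was −1.84 ± 0.22 SE, and −1.92 without transgenic replicate 2. Its dimmer probe set 1447845_s_at ran the same way, with 13.3, 1.9 and 1.9 in transgenic mice and 65.3, 97.3 and 63.5 in wild type mice, but was not tested because of its low signal. Its log2 difference was −2.10 with all arrays and −1.98 without transgenic replicate 2.

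The genes did not share 1 order among the transgenic mice. By the brightest probe sets, transgenic replicate 2 was the highest of its group for 4 genes (Aadac, Mup3, Cyp2f2 and Vnn1), the lowest for 3 (H2-Q10, Orm1 and Orm2) and between the others for Ces1d and Alb. The part that the RNA quality of this mouse had in these orders was not tested. The plot of differences sets both fits side by side.

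**Figure D2:**
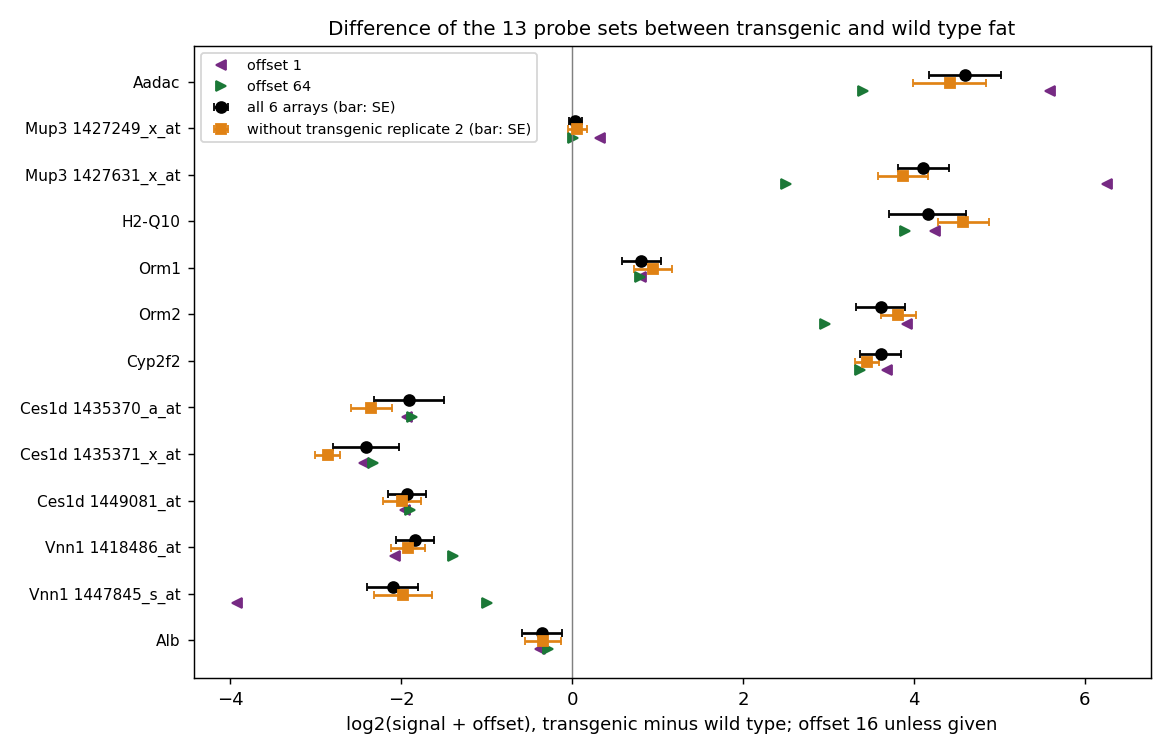
Difference between transgenic and wild type fat for the 13 probe sets, on the log2 scale, with all 6 arrays (black, bar: SE), without transgenic replicate 2 (orange, bar: SE), and with offsets of 1 and 64. Mup3 probe set 1427631_x_at and the dimmer Vnn1 probe set shift most with the offset (2.50 to 6.26 for Mup3, and −3.92 with 1 added against −1.0 with 64 for Vnn1), and the Ces1d probe sets with the letters a and x shift most without transgenic replicate 2.

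Other hepatocyte markers were looked at in the same way. Of 74 listed genes 64 had a probe set, and 49 of them did not exceed the olfactory level on any array. Apoa1, the main apolipoprotein of HDL, had 14.2, 4.3 and 5.1 in transgenic mice and 7.6, 6.6 and 8.2 in wild type mice. Fgb, a fibrinogen chain, had 2.1, 1.9 and 1.5 in transgenic mice and 2.3, 2.0 and 3.6 in wild type mice. Ttr (transthyretin) reached at most 10.8 in transgenic mice and 22.6 in wild type mice, and Ahsg (fetuin A) 57.2 in transgenic mice and 12.3 in wild type mice. These 4 were named after their values were seen. They lay below the olfactory level in all 6 mice, while the transgenic signals of Aadac, Orm2, H2-Q10 and Cyp2f2 lay above it. Ahsg was nonetheless higher, and Ttr lower, in every transgenic mouse than in any wild type mouse.

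Of the 19 hepatocyte genes tested, 1 rose (Hgd), 0 fell and 18 were not past the threshold, by limma with Benjamini-Hochberg adjustment over all probe sets. At an unadjusted p under 0.05 there were 2, Hgd and the apolipoprotein gene Apoc3. Apoc3 had 73.0, 71.9 and 73.7 in transgenic mice and 33.4, 25.9 and 40.4 in wild type mice (0.86 ± 0.21 SE, limma adjusted p = 0.0962). The median log2 difference of the 19 genes was 0.09, beside −0.04 over all 13112 genes tested. Without transgenic replicate 2, 2 rose (Hgd and Fetub) and 0 fell. The difference of Fetub was 0.62 ± 0.40 SE with all arrays (limma adjusted p = 0.492) and 1.05 without that array (limma adjusted p = 0.0283). Hgd, an enzyme of tyrosine breakdown, had 53.2, 207.4 and 119.1 in transgenic mice and 7.7, 7.5 and 10.4 in wild type mice. Its log2 difference was 2.38 ± 0.42 SE (limma adjusted p = 0.0348, at most 0.179 after leaving out 1 array), above the olfactory level in 2 of 3 transgenic mice, and 1.98 without transgenic replicate 2. The call ended with an offset of 64, without the filter and after quantile normalization (limma adjusted p = 0.0558), and with an offset of 1 or a filter of 60% Hgd was not tested. Among the brightest of the other hepatocyte genes were Cyp2e1, which fat is also known to express, with −0.17 ± 0.15 SE, Vtn (vitronectin) with −0.97 ± 0.45 SE and Cyp2c29 with 0.26 ± 0.28 SE (limma adjusted p = 0.598, 0.346 and 0.666). These differences were −0.08, −0.47 and 0.46 without transgenic replicate 2, each moved by over 1.5 times. Serpina1c, an antitrypsin gene, had 0.18 ± 0.22 SE and Cyp7a1, the first enzyme of bile acid synthesis, −0.26 ± 0.24 SE (limma adjusted p = 0.697 and 0.62), and 0.11 and −0.14 without transgenic replicate 2. The summed signal of the 64 genes, most of it from Cyp2e1, was 8512.0 to 10446.3 in transgenic mice and 9844.8 to 11765.5 in wild type mice, and these ranges overlap. The lowest sum, 8512.0, was that of transgenic replicate 2.

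**Figure D3:**
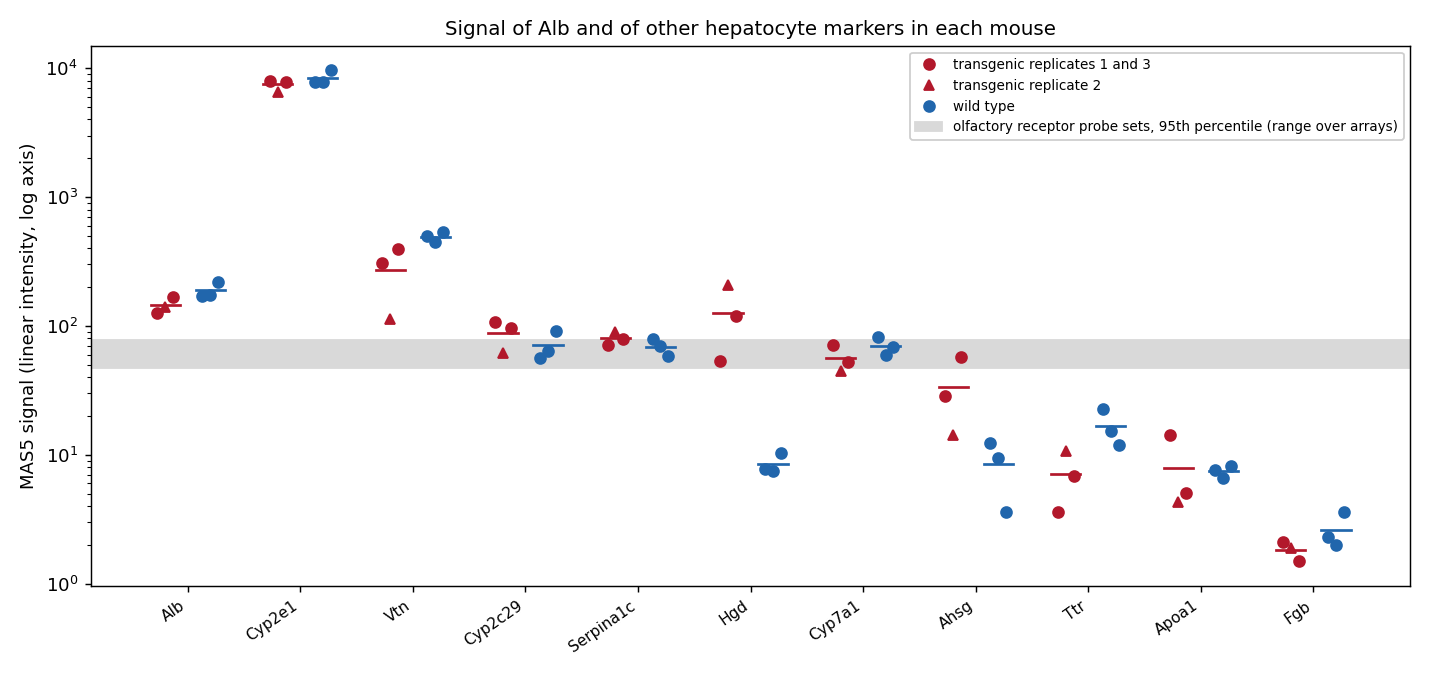
MAS5 signal (vertical log axis) of Alb, of the 6 brightest other hepatocyte genes and of Ahsg, Ttr, Apoa1 and Fgb in each mouse, transgenic (red, triangle for replicate 2) left of wild type (blue), with lines at group means and the olfactory level as a grey band. Hgd is higher in all transgenic mice, and Apoa1, Ttr, Ahsg and Fgb stay below 77.9 in all 6 mice.

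Markers of other tissues, some of which hold such genes, were set beside these values. Scgb1a1, the defining secretory gene of club cells, where Cyp2f2 is known to be strong, had 56.6, 15.9 and 4.5 in transgenic mice, and lay below the olfactory level in all 6 mice. Of all 10 genes listed as club cell markers, 2 lay above that level in all transgenic mice, 4 in all wild type mice, and 5 on no array. Some of them, such as Krt8, Sftpc and Foxj1, are not particular to club cells. Of the tested markers of club cells (5), epididymis (4) and kidney tubule (5), limma called 0, with 1, 0 and 1 at an unadjusted p under 0.05. Without transgenic replicate 2, it called 1, 0 and 0. That gene was Krt8, with −1.09 ± 0.32 SE (limma adjusted p = 0.155) with all arrays and −1.29 (limma adjusted p = 0.0111) without that array. Of its 2 other tested probe sets, 1 was called lower with all arrays. On the mean over probe sets, limma called 1 gene of the club cell list. The summed signals of the club cell, epididymis and kidney tubule lists were 534 to 730, 307 to 392 and 530 to 568 in transgenic mice. In wild type mice they were 863 to 1035.7, 341 to 426 and 622 to 638. Most of the wild type club cell sum came from Krt8 and Cldn10, with means of 346 and 204 (153 and 146 in transgenic mice). Transgenic replicate 2 gave the lowest club cell and epididymis sums, 534 and 307. Markers of adipocytes and macrophages, cells that fat itself holds, were summed as well. In bulk tissue a change in cell number and a change in RNA per cell cannot be told apart. Of 16 macrophage markers 4 rose (Mpeg1, Fcgr1, Ctss and Lgals3), and their summed signal was 42434.0 to 58849.2 in transgenic mice and 19880.8 to 25417.0 in wild type mice. Of 19 adipocyte markers 3 fell (Lep, Acvr1c and Adipoq), with sums of 77726.1 to 101834.3 in transgenic mice and 128361.2 to 142278.9 in wild type mice. Transgenic replicate 2 had the lowest adipocyte sum, 77726.1, and a macrophage sum of 49712.6, which was not the lowest of its group. Without transgenic replicate 2, macrophage markers gave 10 higher and 1 lower, and adipocyte markers 2 higher and 12 lower. Without transgenic replicate 3, or without wild type replicate 1, 2 or 3, the markers called numbered 0 for macrophages and 1 for adipocytes. Median centring ended the calls of Ctss, Lgals3 and Adipoq, testing without the filter those of Fcgr1 and Adipoq, and an offset of 1 or a fit without the mean-variance trend that of Adipoq. Adipoq, the defining fat cell gene, stayed bright, at 4626.2 or more in transgenic mice and 10674.2 or more in wild type mice. The part of these differences in the signals of the 9 genes was not tested.

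The relatives of the 9 genes were taken from lists by family and pathway, chosen with earlier results of these data known. Over all lists 18 genes were called by limma, and Ptgds, Ppcs and Lep kept the call whichever array was left out. The number of lost calls was 4, 0 and 9 without transgenic replicates 1, 2 and 3, and 12, 15 and 14 without wild type replicates 1, 2 and 3. The highest adjusted p among these 6 fits stands beside each called gene below. The third acid glycoprotein gene, Orm3, rose 5.39-fold by limma (log2 difference 2.43 ± 0.45 SE, adjusted p = 0.0394, at most 0.202 after leaving out 1 array), and the difference was 2.86 without transgenic replicate 2. The call ended without the filter on low signals. It had 1539.1, 748.2 and 2254.6 in transgenic mice and 333.2, 229.8 and 184.3 in wild type mice. As for Orm1 and Orm2, transgenic replicate 2 was the lowest of its group and still above every wild type mouse. The 3 Orm genes are close copies, and cross-hybridisation between their probe sets was not tested.

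In the lipocalin family, to which the Orm and Mup proteins belong, 2 of 8 tested genes rose, 0 fell and 6 missed the threshold, with a median log2 difference of 0.23. The other that rose was Ptgds, a prostaglandin D synthase of lipocalin fold (6.20 ± 0.21 SE, limma adjusted p = 0.000248, at most 0.00936 after leaving out 1 array), also 6.20 without transgenic replicate 2. Rbp4, the retinol carrier made in liver and fat, had −0.98 ± 0.27 SE (limma adjusted p = 0.133), and −0.73 without transgenic replicate 2 (limma adjusted p = 0.0321). Mup5, another urinary protein gene, had 0.27 ± 0.28 SE (limma adjusted p = 0.661), with signals of 30.1, 48.1 and 54.0 in transgenic mice and 47.8, 22.9 and 31.6 in wild type mice, all below the olfactory level of their arrays. Without transgenic replicate 2, 2 lipocalin genes rose and 1 fell.

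Genes of the acute phase list went both ways. Most encode plasma proteins that liver and fat release in inflammation, acid glycoproteins among them. The list also holds Mt1, Mt2 and Steap4, whose products are not plasma proteins. Of 14 tested, 2 rose (Orm3 and Mt1), 1 fell (Hp) and 11 missed the threshold, and the median log2 difference was 0.39. Mt1, a metallothionein gene, rose 2.81-fold (1.49 ± 0.15 SE, limma adjusted p = 0.00565, at most 0.0522 after leaving out 1 array), with 1.43 without transgenic replicate 2. Its second tested probe set was not called. Hp, which encodes haptoglobin, fell by 2.51 on the log2 scale (SE 0.32, limma adjusted p = 0.0107, at most 0.0786 after leaving out 1 array), with 1335.0, 1097.8 and 2487.7 in transgenic mice and 9043.6, 7677.2 and 9970.1 in wild type mice, and the difference was −2.27 without transgenic replicate 2. Thus the genes of 2 plasma glycoproteins, Orm2 and Hp, lay on opposite sides with no overlap. Saa3, the serum amyloid gene of macrophages and fat cells, had 1.62 ± 0.39 SE (limma adjusted p = 0.0915), and 1.39 without transgenic replicate 2 (limma adjusted p = 0.0201). Lbp, the lipopolysaccharide binding protein gene, had −1.27 ± 0.30 SE (limma adjusted p = 0.0837), and −1.07 without transgenic replicate 2 (limma adjusted p = 0.0133). Without transgenic replicate 2, 5 rose and 4 fell.

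**Figure D4:**
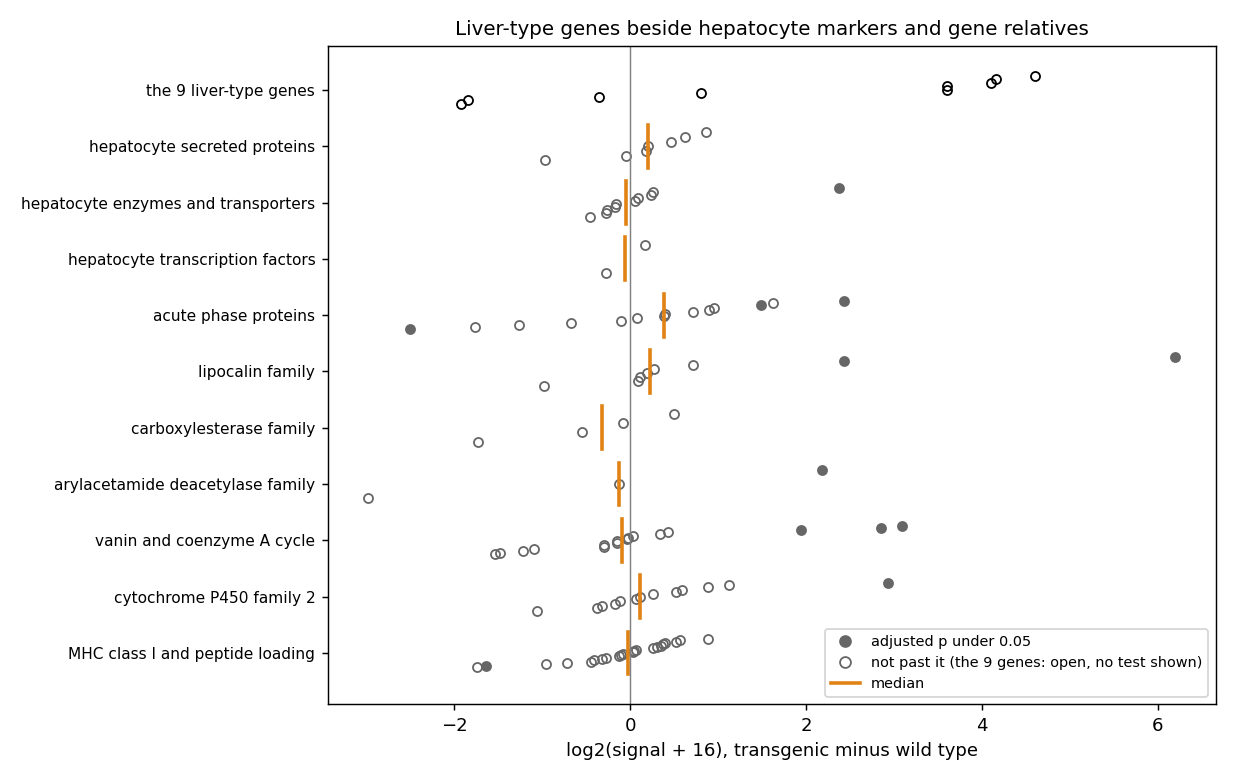
Log2 difference between transgenic and wild type fat (horizontal axis) for the 9 liver-type genes and for the tested genes of 10 lists, 1 point per gene. Points of the lists are filled where the limma adjusted p was under 0.05, with the median of each list in orange. The points of the 9 genes are all open, whether past the threshold or not, and have no median line. The hepatocyte lists have medians of 0.20, −0.05 and −0.05, beside −0.04 over all genes.

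Among carboxylesterases other than Ces1d, 0 of 4 tested genes passed the limma test, with 1 at an unadjusted p under 0.05. That was Ces1f, a neighbour of Ces1d on chromosome 8, which had 327.5, 720.2 and 268.9 in transgenic mice and 1149.8, 1543.0 and 1429.2 in wild type mice. Its log2 difference was −1.73 ± 0.39 SE (limma adjusted p = 0.0749), and −2.14 without transgenic replicate 2 (limma adjusted p = 0.000143). Like the Ces1d probe sets with the letters a and x, it was highest in transgenic replicate 2 among transgenic mice. Ces2g, a further liver esterase gene, had 0.50 ± 0.23 SE (limma adjusted p = 0.348). Of the genes related to Aadac, Nceh1, which hydrolyses cholesteryl ester and ether lipids, rose 4.53-fold (2.18 ± 0.42 SE, limma adjusted p = 0.0462, at most 0.221 after leaving out 1 array), and its other 2 tested probe sets were not called. Its difference was 2.43 without transgenic replicate 2, and the call ended with an offset of 1 and without the filter. Lipe, the hormone-sensitive lipase gene, had 2220.2, 184.3 and 1507.2 in transgenic mice and 7136.4, 6202.9 and 7476.7 in wild type mice. Its log2 difference was −2.98 ± 0.84 SE (limma adjusted p = 0.139), and −1.91 (limma adjusted p = 0.000192) without transgenic replicate 2.

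Vnn1 acts in the turnover of coenzyme A. In a list of vanins and genes around the coenzyme A cycle 16 others were tested, of which 3 rose, 0 fell and 13 missed the threshold. Btd, Ado and Csad, all among those not called, are not genes of that cycle itself. The pantothenate kinase gene Pank1, the first step of coenzyme A synthesis, rose 7.21-fold (2.85 ± 0.30 SE, limma adjusted p = 0.00593, at most 0.063 after leaving out 1 array). Ppcs, the next step, rose 8.49-fold (3.09 ± 0.23 SE, limma adjusted p = 0.00225, at most 0.0328 after leaving out 1 array), with 1432.8, 1572.0 and 1594.3 in transgenic mice and 183.8, 177.9 and 140.5 in wild type mice. Nudt7, a peroxisomal hydrolase of coenzyme A, rose 3.85-fold (1.94 ± 0.21 SE, limma adjusted p = 0.00639, at most 0.0632 after leaving out 1 array). The differences of Pank1, Ppcs and Nudt7 were 2.69, 3.07 and 1.81 without transgenic replicate 2. Other tested probe sets exist for Pank1 (2, none called) and Nudt7 (2, with 1 called in the same direction). The neighbouring pantetheinase gene Vnn3 had 138.6, 23.9 and 217.6 in transgenic mice and 274.0, 266.0 and 417.7 in wild type mice, lower with no overlap, like Vnn1, but not past the test (−1.54 ± 0.64 SE, limma adjusted p = 0.30, and −0.79 with an adjusted p of 0.0886 without transgenic replicate 2). The list's median log2 difference was −0.09, and 4 rose and 0 fell without transgenic replicate 2.

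Of 13 tested genes of cytochrome P450 family 2 and its electron donors, 1 rose and 12 missed the threshold. Cyp2b10, a liver enzyme induced by drugs through the receptor CAR, had 223.6, 792.8 and 340.3 in transgenic mice and 33.5, 35.1 and 45.8 in wild type mice. It rose 7.62-fold (2.93 ± 0.45 SE, limma adjusted p = 0.0222, at most 0.134 after leaving out 1 array), above the olfactory level in 3 transgenic and 0 wild type mice, and 1 of its 2 other tested probe sets was also called higher. As for Cyp2f2, its highest value was in transgenic replicate 2, and its difference was 2.44 without that array. The median of the list was 0.11, and without that array 2 rose and 2 fell.

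H2-Q10 stood beside 22 tested genes of a list of class I molecules and peptide loading, of which 0 rose, 1 fell and 21 missed the threshold. Among the 22 are H2-Ke6, Fcgrt and Hfe, which do not present peptides. The median log2 difference of the list was −0.02, beside −0.04 over all genes tested. Without transgenic replicate 2 these medians were 0.27 and 0.02. The classical class I genes H2-K1 and H2-D1 had 0.26 ± 0.11 SE and −0.28 ± 0.39 SE (limma adjusted p = 0.313 and 0.75), and their light chain gene B2m 0.03 ± 0.12 SE (limma adjusted p = 0.896). The difference of H2-D1 turned to 0.21 (limma adjusted p = 0.397) without transgenic replicate 2, with 0.28 for H2-K1 and 0.02 for B2m. These values are from the brightest probe sets. Of the other tested probe sets, 1 of 3 for H2-K1 and 1 of 4 for H2-D1 were called higher, the second against the sign of the brightest. The gene of the peptide loading protein tapasin, Tapbp, had 0.89 ± 0.19 SE (limma adjusted p = 0.0633), and 1.04 (limma adjusted p = 0.00138) without transgenic replicate 2, when 6 genes rose and 1 fell. The gene that fell was Cd1d1, which presents lipids to NKT cells (−1.64 ± 0.19 SE, limma adjusted p = 0.00837, at most 0.0787 after leaving out 1 array), with −1.76 without transgenic replicate 2. Median centring ended its call.

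**Figure D5:**
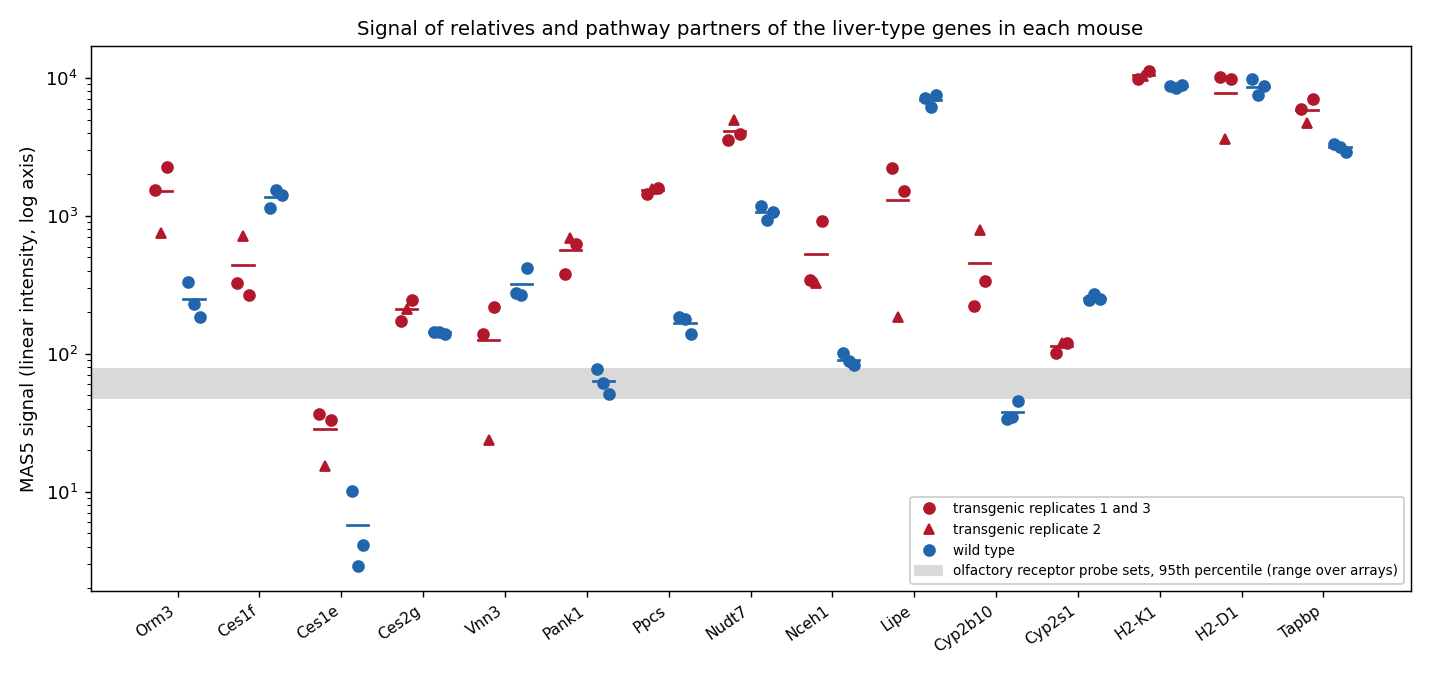
MAS5 signal (vertical log axis) of 15 relatives and pathway partners, chosen after their values were seen, in each mouse, transgenic (red, triangle for replicate 2) left of wild type (blue), with lines at group means and the olfactory level as a grey band. Orm3, Ces1e, Ces2g, Pank1, Ppcs, Nudt7, Nceh1, Cyp2b10, H2-K1 and Tapbp are higher in all 3 transgenic mice than in any wild type mouse. Ces1f, Vnn3, Lipe and Cyp2s1 are lower, and H2-D1 overlaps. Ces1e lies below the olfactory level in all 6 mice.

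For each of the 9 genes, the genes with the most similar signal pattern were sought among 13103 others, by the Pearson correlation of log2 values over the 6 arrays. These correlations describe the patterns only: all points share the split into 2 groups, and many genes come close, between 12 for Alb and 417 for Mup3 above 0.95. Nearest to Aadac were Ehhadh, a peroxisomal enzyme of fatty acid oxidation (r = 0.9975), Rnf128 and Mpp6. Nearest to Mup3 were the acyl-CoA synthetase gene Acsl3 (r = 0.9995), the desaturase gene Fads1 and Aldh9a1. Nearest to H2-Q10 were the transglutaminase gene Tgm5 (r = 0.9958), the endothelial lipase gene Lipg and the interferon-induced gene Ifit3. Nearest to Orm2 were the apolipoprotein gene Apoc1 (r = 0.9990), the steroidogenic gene Star and Pgp. Nearest to Cyp2f2 were the vesicle traffic gene Rab27b (r = 0.9986), Spry3 and Pdzk1ip1. On the lower side, Rprml (r = 0.9984), the glutathione transferase gene Gstt1 and Grhl1 were nearest to Ces1d, and Cyp2s1 (r = 0.9966), the lipid droplet lectin gene Lgals12 and 2610035D17Rik to Vnn1. The nearest to Orm1 were Rpp14 (r = 0.9885), the adenylate kinase gene Ak1 and Stac, and to Alb Mir205hg (r = 0.9845), Ufl1 and Dop1a.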

How the data were processed

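Total RNA of 6 mice was hybridised to MOE430v2.0 arrays. The deposited values are linear signal intensities, made by the authors with MAS5 (1 signal from the probes of each probe set), per the submitters' processing notes. No version, scaling target or detection call is given in the sources used here. The table has 0 columns of other samples. Of 45101 probe sets 34958 have 1 gene symbol in the platform annotation, 932 several and 9211 none, and 6 with several belong to the families described here and were left out.

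The analysis used R 4.3.3 with limma 3.58.1, and Python 3.11.15 with numpy 2.4.6, pandas 2.3.3, Biopython 1.88 and matplotlib 3.10.9. After an offset of 16, signals were put on the log2 scale and not normalized further. The 64 control probe sets and the 40% with the lowest mean over all 6 arrays were left out, which left 27023. Transgenic mice were compared with wild type mice by limma (lmFit, then eBayes with a trend), two-sided, with Benjamini-Hochberg adjustment over all tested probe sets and a threshold of 0.05. The fit was tested on simulated data. Fold changes on this scale understate the change of dim genes. Each gene stands by its brightest tested probe set, which gave 13112 genes. The p-values cover the spread between animals and of handling.

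The members and the 15 gene lists were chosen with earlier results of these data known. Named genes are the 9 members, up to 4 called genes with the largest change per list, the 6 brightest hepatocyte genes besides Alb, and the 3 genes with the most similar pattern per member. Others, such as Apoa1, Ttr, Ces1f, Ces2g, Vnn3, Lipe, Rbp4, Mup5, Saa3, Lbp, Scgb1a1 and the class I genes, were named after their values were seen. Alternatives were other offsets, filters and normalizations, eBayes settings, array weights, a replicate block, each array left out, and the mean over probe sets. Promoter windows are from RefSeq (GRCm38.p6) and were aligned globally (match 1, mismatch −1, gap opening −2, gap extension −0.5). A comparison of proteins was not analysed here.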

Additional observations from a re-analysis of the deposited data

How the results depend on the processing

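Of 186 recomputed differences of the 11 tested member probe sets under 17 settings, 0 changed sign, 175 moved by less than 1 SD between mice and 11 by more. The number of probe sets called by limma, 802, lay within 1.5 times of that under other offsets, filters, eBayes settings, quantile normalization and median centring. It was 3359 with array weights, 341 with the replicate block, 141 to 3565 with 1 array left out (141 without wild type replicate 2, 3565 without transgenic replicate 2) and 4976 without transgenic replicate 2 after quantile normalization. Genes of the 15 lists called, 18 in all, became 54 with array weights, 9 with the replicate block, 3 to 56 with 1 array left out and 69 without transgenic replicate 2 after quantile normalization. The deviations of same-numbered mice from their group means had correlations of −0.374, 0.0892 and −0.0507. With means of 3 mice, and transgenic replicate 2 among them, these values cannot show whether the numbers mark litters. Under the block 5 member genes were past the threshold as higher and 2 as lower, and 9 of the 18 list genes lost their call (Orm3, Nceh1, Cd1d1, Adipoq, Acvr1c, Fcgr1, Mpeg1, Ctss and Lgals3). With the other settings that keep all 6 arrays, averaging over probe sets aside, 0 to 5 of those tested lost it, most without the filter. Hepatocyte genes above the olfactory level in all transgenic mice were 3 with the 95th percentile and 5 with the 90th. The causes of these shifts were not tested. Without detection calls, differences against signals below the olfactory level have no bound.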
